A study of Mus musculus with 20 samples.

Results

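Translation initiation factors are the proteins that bring the initiator transfer RNA, the small ribosomal subunit and a messenger RNA together and find the start codon. They were taken as the protein-coding genes of the mouse GENCODE annotation whose symbol begins with Eif1 to Eif6, without the Eif2ak kinases. This gave 51 of the 55487 genes in the count table, made up of 4 subunits or paralogs of eIF2, 5 of eIF2B, 14 of eIF3, 16 members of the eIF4 family and 12 other factors. RNA-seq had been run on BV-2 microglia, an immortalized wild-type mouse microglial cell line, in 4 groups of 5 libraries. Young untreated cells came from low-passage aliquots and aged untreated cells from aliquots of the same line kept in culture long term, and both also received lipopolysaccharide (LPS), the bacterial ligand of Toll-like receptor 4, at 100 ng/ml for 6 h. Aged here is therefore a culture history of 1 cell line, not the age of an animal, and the number of separate long-term cultures is not given in the sources used here. The sample titles number the libraries of each group N1 to N5. Libraries that share a number are called a batch here, and each batch holds 1 library of each group.

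Total counts per library had a median of 14257954 in young untreated (13929727 to 15577305), 14331120 in aged untreated (13865989 to 16829292), 14409826 in young LPS (11371508 to 15884447) and 14458210 in aged LPS cultures (12528859 to 15251546). All 12 microglia and macrophage markers examined exceeded 3 counts in at least 1 library, and their summed level lay between 2747 and 4389 counts per 1000000 counts (CPM), with Cd68 the most abundant at a mean of 1007 CPM. The group means of this sum were 3688 CPM in young, 3103 in aged, 3569 in young LPS and 3142 in aged LPS cultures. Astrocyte, neuron and fibroblast markers summed to at most 0.321 CPM in any library, and Gfap, Rbfox3 and Col1a1 never exceeded 3 counts. Endothelial markers summed to 71.4 to 115 CPM, nearly all from Kdr at a mean of 91.6 CPM, while Cldn5, Cdh5 and Tek never exceeded 3 counts. The group means of the endothelial sum were 109 CPM in young, 80.8 in aged, 92.3 in young LPS and 84.3 in aged LPS cultures, and the part of either sum in the results was not tested. In these cultures fewer cells with a transcript and less of it per cell cannot be told apart.

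Initiation runs in steps, and the families divide along them. eIF2, a trimer of alpha, beta and gamma subunits, carries the initiator methionyl transfer RNA in a complex with GTP. eIF2B is the exchange factor that reloads eIF2 with GTP, and phosphorylation of eIF2 alpha by stress kinases blocks that exchange. eIF3 is the large scaffold on the small ribosomal subunit, and eIF1 and eIF1A hold the scanning complex open until the start codon is found. The cap of the messenger RNA is bound by eIF4E, which joins the scaffold eIF4G1 and the helicase eIF4A. The 4E-binding proteins compete with eIF4G for eIF4E until the kinase mTORC1 phosphorylates them. In macrophages and microglia Toll-like receptor signals are known to act on this machinery through mTORC1, the MNK kinases and the eIF2 kinases.

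RefSeq promoter windows, from 250 bases before the annotated start, were matched for 39 of the 51 genes, giving 51 windows on mouse build GRCm38.p6. The E-box CACGTG, the letters bound by MYC-family proteins and other basic helix-loop-helix factors, stood in 21.6% of these windows and in 6.02% of all 32851 windows of the same length. It reads the same on both strands. The sites of the cap-binding factors that rose with LPS (Eif4a1, Eif4e, Eif4g1), of their helper Eif4h and of the most abundant factor Eif5a are shown because these genes carry the results on the cap-binding complex, with the E-box in capitals and each stretch written along its gene's strand. The stretches lie at chr11:69672595-69672624 (minus strand, 189 bases before the start) for Eif4a1, chr3:138527192-138527221 (plus strand, 64 bases before) for Eif4e, chr16:20672661-20672690 (plus strand, 54 bases before) for Eif4g1, chr5:134639488-134639517 (minus strand, 96 bases before) for Eif4h and chr11:69921443-69921472 (minus strand, 74 bases before) for Eif5a. Eif4e has a further E-box 228 bases before its start and Eif5a one 178 bases before a start, which are not shown.
Eif4a1: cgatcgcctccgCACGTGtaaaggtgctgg
Eif4e: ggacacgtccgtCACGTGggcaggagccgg
Eif4g1: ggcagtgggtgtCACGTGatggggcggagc
Eif4h: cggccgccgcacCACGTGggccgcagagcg
Eif5a: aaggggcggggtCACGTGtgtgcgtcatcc

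The E-boxes shown share no base with another motif that was found. An E-box was present in windows of 9 of the genes, of which 8 were tested, and a match of letters is a description rather than a shown binding site. Of other motifs searched on both strands, the GC box GGGCGG stood in 70.6% of the windows of initiation factor genes and 32.7% of all windows, and the ETS core CCGGAAG in 23.5% and 6.91%. The TATA motif TATAAA stood in 7.84% and 12.4%, and a start at C followed by at least 4 pyrimidines, the pattern of mRNAs under mTORC1 control, in 3.92% and 2.51%. An NF-kB consensus matched 0% of the initiation factor windows and 7.25% of all windows, and the cyclic AMP response element TGACGTCA 0% and 1.55%. The ATF4-C/EBP core TGATGCAA stood in 0% and 0.791%, and the NRF1 motif in 1.96% and 0.782%. The window before the start of Eif4ebp2 is shown whole, because this was the gene whose LPS response was called different between young and aged cells. It lies at chr10:61452670-61452919 on the minus strand of GRCm38.p6 and overlaps no annotated exon. It holds GC boxes 215 and 46 bases before the start, and the ETS core, in capitals and read here on the opposite strand, 124 bases before it.
Eif4ebp2: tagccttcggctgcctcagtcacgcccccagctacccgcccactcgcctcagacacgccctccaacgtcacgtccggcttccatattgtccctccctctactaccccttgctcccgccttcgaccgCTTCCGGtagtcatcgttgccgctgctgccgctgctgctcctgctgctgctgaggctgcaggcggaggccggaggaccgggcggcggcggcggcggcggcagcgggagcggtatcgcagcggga

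BV-2 microglia expressed nearly the whole set. Of the 51 genes, 48 passed the filter on low counts and were tested among 12799 genes, and Eif2s3y, Eif4e1b and Eif5a2 had 0 counts in all 20 libraries. Eif2s3y is the Y-linked copy of the eIF2 gamma subunit, Eif4e1b a germline cap-binding paralog and Eif5a2 a paralog of Eif5a. A count of 3 corresponds to between 0.178 and 0.264 CPM across the libraries, and this floor covers counting error only. Initiation factors together held 1.64 ± 0.044% (SD, n = 5) of all counts in young untreated, 1.76 ± 0.031% in aged untreated, 1.77 ± 0.0418% in young LPS and 1.88 ± 0.0355% in aged LPS cultures. Eif4g2, Eif5a, Eif4g1, Eif4a1 and Eif3b together held 46.0% of the initiation factor counts.

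Levels of different genes were compared as counts per kilobase of exon, scaled to a fixed total of 1000000 per library. On this per-length scale Eif5a, which acts in elongation and termination as well, was the most abundant initiation factor mRNA in young untreated cultures at 2723 ± 112 (SD, n = 5). Eif3b followed at 933 ± 46.5 and Eif4a1 at 872 ± 52.3. Eif4e3, an atypical cap-binding paralog, was the lowest of those tested at 6.83. Among the 13 canonical eIF3 subunit genes, Eif3b was highest and Eif3j1 lowest in every group, and their per-length ratio was 17.2 in young untreated, 15.7 in aged untreated, 12.5 in young LPS and 13.2 in aged LPS cultures. The exon length of a gene joins all its annotated transcripts, so a level per length is lower for genes with many rarely used exons.

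**Figure D1:**
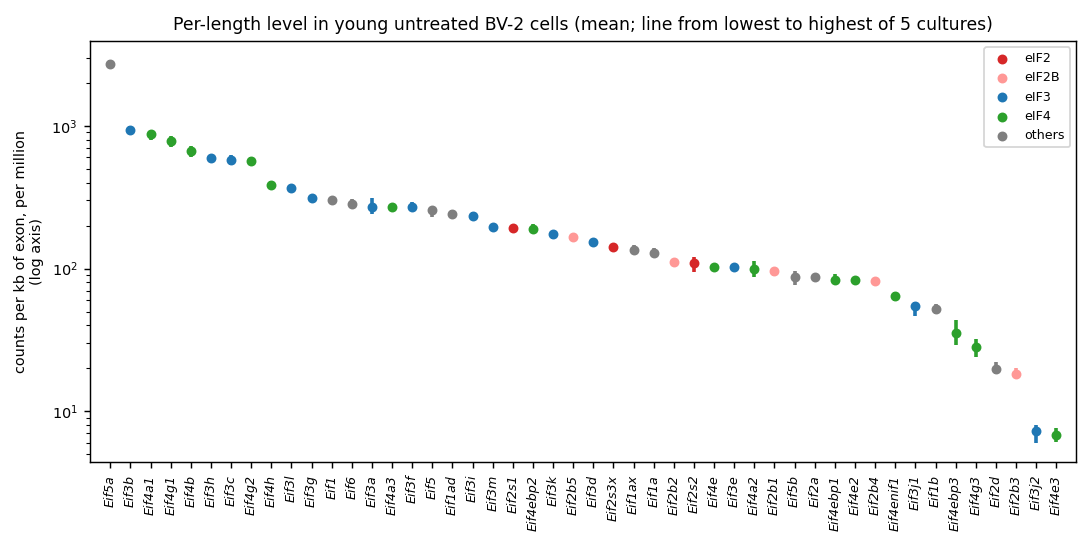
Per-length level (counts per kilobase of exon, scaled to 1000000 per library, log axis) of the 48 tested initiation factor mRNAs in young untreated BV-2 cells, ordered from high to low and coloured by family; points are means of 5 cultures and lines run from the lowest to the highest culture. Eif5a stands at 2723 and Eif4e3 at 6.83, with the families intermingled.

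On the TMM scale, LPS raised most initiation factor mRNAs in both young and aged cells. In young cells 34 of the 48 tested mRNAs rose and 4 fell, while across all 12799 genes 31.2% rose and 33.5% fell. In aged cells 28 rose and 4 fell, against 27.5% and 26.9% of all genes. Most changes were small: called with a log2 fold change of at least 0.5 in either direction were 12 of the 48 in young cells, against 35.1% of all genes, and 5 in aged cells, against 25.3%. On this scale all 3 tested eIF2 subunits rose at both ages, as did 13 of 14 eIF3 genes in young and 12 of 14 in aged cells, and with library sizes alone 3 and 1 of the eIF2 subunits and 4 and 4 of the eIF3 genes did. The mRNAs that fell were Eif4ebp2, the 4E-binding protein that restrains eIF4E, Eif4enif1, the transporter that also silences eIF4E-bound messages, Eif4e3, and Eif1ad, a gene related to Eif1a. The median log2 fold change of the 48 mRNAs was 0.23 in young and 0.18 in aged cells, beside -0.011 and 0.0005 over all genes tested. Calls are edgeR quasi-likelihood tests with Benjamini-Hochberg adjusted p below 0.05 over all genes, and an mRNA is named as called or not called in this fit unless another is named. The comparisons of age and of LPS share their untreated groups, so counts from different comparisons are not independent of each other.

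The upward shift is relative to the TMM scale, which sets the bulk of genes to no change. With library sizes alone, the median of all genes moved to -0.23 in young and -0.16 in aged LPS comparisons, and 14 of the initiation factors rose and 11 fell in young cells, against 18.8% and 50.0% of all genes. In aged cells 12 rose and 7 fell on that scale, against 17.0% and 42.8% of all genes. In young cells the calls of Eif1a, Eif2a, Eif2b1, Eif2b2, Eif2b4, Eif3a, Eif3b, Eif3g, Eif3h, Eif3i, Eif3j2, Eif3k, Eif3l, Eif3m, Eif4a2, Eif4g1, Eif4h, Eif5, Eif5a and Eif5b were lost with library sizes alone, and Eif1ax, Eif1b, Eif2b5, Eif2d, Eif3f, Eif4a3 and Eif4b were newly called lower. In aged cells those of Eif1a, Eif2b1, Eif2s1, Eif2s3x, Eif3a, Eif3b, Eif3e, Eif3g, Eif3h, Eif3i, Eif3l, Eif3m, Eif4g1, Eif4g3, Eif5 and Eif5a were lost, and Eif2b5, Eif4a3 and Eif4b were newly called lower. With no filter on low counts, Eif2b2, Eif3i, Eif3k and Eif4h lost their calls in young and Eif2b1, Eif3b and Eif3i in aged cells. The family medians of eIF2 and eIF3 kept their sign on both scales. Those of eIF2B, eIF4 and the other factors changed sign, from 0.19 to -0.034, from 0.14 to -0.081 and from 0.20 to -0.025 in young cells and from 0.091 to -0.069, from 0.13 to -0.030 and from 0.15 to -0.0069 in aged cells. Of single mRNAs that rose on the TMM scale, Eif2b2, Eif2b4, Eif3b, Eif3i, Eif3k, Eif3l, Eif4h, Eif2a and Eif5b in young cells and Eif2b1, Eif3b and Eif3i in aged cells had fitted values below 0 with library sizes alone, none of them called lower. Relative to the median of all genes on the same scale, the 48 mRNAs stood at 0.24 in young and 0.18 in aged cells. In 36 of the 48 mRNAs the young LPS and young untreated cultures did not overlap in CPM, and in 25 the aged ones did not, against 49.1% and 40.1% of all genes.

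**Figure D2:**
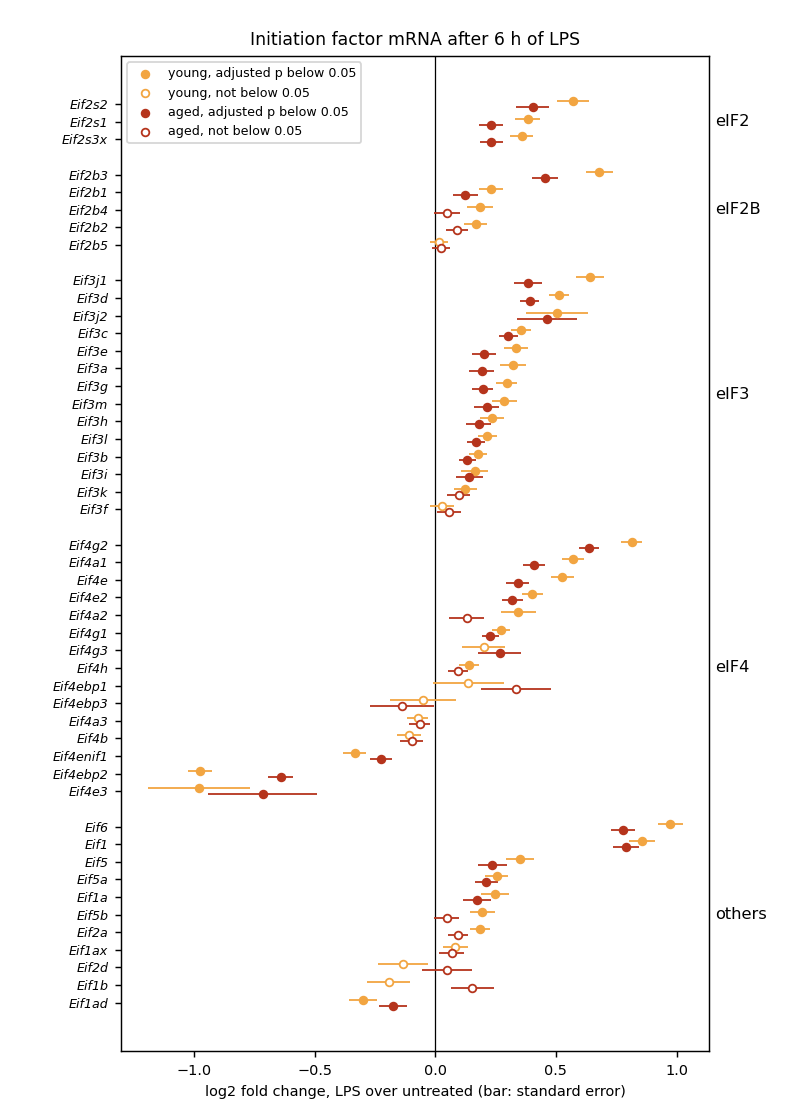
Log2 fold change of LPS over untreated cultures (x axis) for each tested initiation factor mRNA, grouped by family, in young (orange) and aged (red) cells; bars are standard errors and filled points have an edgeR adjusted p below 0.05. Eif6, Eif1 and Eif4g2 lie farthest to the right, Eif4ebp2 and Eif4e3 farthest to the left, and eIF3 points are all right of 0.

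The eIF2 subunits rose together on the TMM scale. Eif2s1 encodes the alpha subunit, whose phosphorylation is the switch of the integrated stress response. Its levels in batches 1 to 5 were 266, 263, 251, 255.2 and 281 CPM in young untreated and 347, 357, 331, 307 and 374 CPM in young LPS cultures. They were 293, 306, 292, 285 and 314 CPM in aged untreated and 336, 357, 337, 346 and 371 CPM in aged LPS cultures. No LPS culture overlapped the untreated cultures of its age, and the log2 fold change was 0.38 ± 0.050 (SE), adjusted p = 6.39e-07 by edgeR in young and 0.23 ± 0.050 (SE), adjusted p = 0.000503 in aged cells. Eif2s2, the beta subunit that contacts eIF5 and eIF2B, gave 0.57 ± 0.068 (SE), adjusted p = 1.45e-07 by edgeR in young and 0.40 ± 0.068 (SE), adjusted p = 2.61e-05 in aged cells. Eif2s3x, the X-linked gamma subunit that binds the transfer RNA, gave 0.36 ± 0.048 (SE), adjusted p = 7.37e-07 by edgeR and 0.23 ± 0.047 (SE), adjusted p = 0.000236. For all 3 subunits the LPS culture was higher in 5 of 5 batches at each age. With library sizes alone the aged calls of Eif2s1 (0.070, adjusted p = 0.227, edgeR) and Eif2s3x (0.073, adjusted p = 0.206) were lost.

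Within eIF2B the change was unequal. Eif2b3, the gamma subunit of the catalytic part, rose by 60.3% in young and 37.2% in aged cells. Its levels were 31.7, 31.2, 33.5, 35.1 and 32.1 CPM in young untreated, 51.8, 56.4, 48.7, 50.4 and 54.8 in young LPS, 35.1, 35.8, 40.8, 39.8 and 39.4 in aged untreated and 52.4, 52.1, 52.1, 51.2 and 54.2 in aged LPS cultures. The groups did not overlap at either age, with log2 fold changes of 0.68 ± 0.055 (SE), adjusted p = 2.17e-10 by edgeR and 0.46 ± 0.054 (SE), adjusted p = 2.05e-07. Eif2b5, the catalytic epsilon subunit, stood at a log2 fold change of 0.015 in young and 0.024 in aged cells and was not called at either age (adjusted p = 0.734 and 0.604, edgeR), while with library sizes alone it was called lower at both, at -0.21 (adjusted p = 2.66e-05, edgeR) and -0.14 (adjusted p = 0.00239). The regulatory subunits Eif2b1, Eif2b2 and Eif2b4 rose in young cells by 0.23, 0.17 and 0.19 on the log2 scale, and of these only Eif2b1 was called in aged cells, at 0.12 ± 0.050 (SE), adjusted p = 0.0411. That call was lost in 8 of 20 fits with a library left out, those without aged untreated 1, 2, 3 or 5 or aged LPS 2, 3, 4 or 5 (highest adjusted p = 0.118, edgeR), and Eif2b2 was called in aged cells with the replicate block (adjusted p = 0.0345). Exons of Eif2b4 overlap those of Snx17 on the opposite strand, whose counts were 165% of its own and which rose by 0.22 in young cells. Whether counting used strand is not given in the sources used here, so the Eif2b4 value is uncertain.

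On the TMM scale nearly all eIF3 genes rose, by different amounts, while with library sizes alone the calls that held were those of Eif3c, Eif3d, Eif3e and Eif3j1 in young and Eif3c, Eif3d, Eif3j1 and Eif3j2 in aged cells. In young cells the 14 log2 fold changes ran from 0.029 for Eif3f to 0.64 for Eif3j1, and in aged cells from 0.057 for Eif3f to 0.46 for Eif3j2. Eif3d, the subunit with cap-binding activity of its own, rose by 42.7% in young and 31.1% in aged cells. Its levels were 208, 209, 200.2, 216 and 221 CPM in young untreated, 302, 305, 284, 296 and 317 in young LPS, 230.5, 227, 219.9, 224 and 234 in aged untreated and 289, 305, 292, 292 and 310.4 in aged LPS cultures, without overlap at either age. Eif3j1 encodes the loosely bound subunit near the mRNA entry channel. Its levels were 76.5, 92.2, 81.7, 90.9 and 94.7 CPM in young untreated, 135, 148, 131, 131 and 135 in young LPS, 97.6, 107, 101.4, 96.1 and 106 in aged untreated and 122.7, 131, 139.8, 135 and 136 in aged LPS cultures. The LPS cultures all lay above the untreated ones, with log2 fold changes of 0.64 ± 0.058 (SE), adjusted p = 1.63e-09 by edgeR in young and 0.39 ± 0.057 (SE), adjusted p = 5.63e-06 in aged cells. Its near-identical copy Eif3j2, at 3.99 to 8.25 CPM, gave 0.50 ± 0.13 (SE), adjusted p = 0.00157 by edgeR and 0.46 ± 0.13 (SE), adjusted p = 0.00335, and reads of the copies may not be told apart. Exons of Eif3j1 also overlap Spg11 on the opposite strand (counts 69.5% of its own), which stood at a log2 fold change of -0.082 and 0.017 and was not called (adjusted p = 0.146 and 0.794, edgeR). Eif3f was the exception in not being called at either age (adjusted p = 0.633 and 0.357, edgeR), and with library sizes alone it was called lower in young cells (-0.19, adjusted p = 0.000784, edgeR). Eif3k was called in young cells, at 0.12 ± 0.046 (SE), adjusted p = 0.0223, and in aged cells with the edgeR replicate block (adjusted p = 0.0430). The young Eif3k call was lost without young untreated 4 (adjusted p = 0.0825) or young LPS 5 (adjusted p = 0.0570). Eif3i was called at both ages, but in aged cells, at 0.14 ± 0.056 (SE), adjusted p = 0.0367 by edgeR, it was called in 14 of 20 fits with a library left out and lost without aged untreated 1, 2 or 4 or aged LPS 2, 3 or 5 (highest adjusted p = 0.113).

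Among the core cap-binding factors 5 of 6 were called higher at each age on the TMM scale, against 31.2% of all genes in young and 27.5% in aged cells. With library sizes alone only Eif4a1, Eif4e and Eif4g2 of them were called higher, at both ages, against 18.8% and 17.0% of all genes. Eif4g2, also known as DAP5, is a scaffold that lacks the eIF4E-binding site and supports cap-independent initiation, and it changed most. Its levels were 1635, 1542, 1501, 1647 and 1607 CPM in young untreated and 2939, 2813, 2645, 2702 and 2839 CPM in young LPS cultures. They were 1763, 1886, 1792, 1808 and 1726 CPM in aged untreated and 2794, 2869, 2793, 2831 and 2657 CPM in aged LPS cultures. Every LPS culture lay above every untreated one, and the rise was 75.7% in young (0.81 ± 0.042 (SE), adjusted p = 9.34e-14, edgeR) and 55.4% in aged cells (0.64 ± 0.042 (SE), adjusted p = 1.24e-11). Eif4g1, the scaffold of the cap-binding complex, rose by 0.27 (adjusted p = 8.14e-07, edgeR) and 0.23 (adjusted p = 1.47e-05) on the log2 scale, and with library sizes alone it was called at neither age (adjusted p = 0.254 and 0.149, edgeR). Eif4g3, its paralog, gave 0.27 ± 0.089 (SE), adjusted p = 0.0142 by edgeR in aged cells, and in young cells 0.20 ± 0.089 (SE), adjusted p = 0.0523, which was called with the replicate block (adjusted p = 0.0150). The per-length ratio of Eif4g1 to Eif4g2 was 1.37 ± 0.0735 (SD, n = 5) in young untreated and 1.21 ± 0.0234 in aged untreated cultures, and 0.942 ± 0.0476 in young LPS and 0.914 ± 0.0227 in aged LPS cultures. Eif4g1 mRNA thus exceeded Eif4g2 per length before LPS in every culture, and in the LPS cultures it did so in none. Which of the pair is higher depends on the exon lengths used, while the direction of the change in the ratio does not.

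Eif4a1, the main helicase that unwinds leader sequences, rose by 48.4% in young and 32.8% in aged cells. Eif4a1 levels were 969, 1027, 1007, 1072 and 1120 CPM in young untreated, 1499, 1587, 1453, 1529 and 1642 in young LPS, 1124, 1099, 1087, 1123 and 1175 in aged untreated and 1437, 1449, 1496, 1497 and 1567 in aged LPS cultures. The groups did not overlap, with log2 fold changes of 0.57 ± 0.045 (SE), adjusted p = 1.98e-10 by edgeR in young and 0.41 ± 0.045 (SE), adjusted p = 7.84e-08 in aged cells. Eif4a2 gave 0.34 ± 0.072 (SE), adjusted p = 0.000237 by edgeR in young cells, and in aged cells 0.13 ± 0.072 (SE), adjusted p = 0.133, with a call under the replicate block (adjusted p = 0.0179). The opposite-strand neighbour Rfc4, with counts at 20.7% of those of Eif4a2, fell by 0.90 and 0.57. The per-length ratio of Eif4a1 to Eif4a2 was 8.82 ± 1.02 (SD, n = 5) in young untreated, 8.95 ± 0.927 in aged untreated, 10.4 ± 1.48 in young LPS and 10.8 ± 0.790 in aged LPS cultures, with ranges that overlap between untreated and LPS cultures at both ages. Eif4a3, the helicase of the exon junction complex that acts in splicing rather than initiation, stood at a log2 fold change of -0.073 and -0.065 and was not called (adjusted p = 0.148 and 0.217, edgeR). Of the accessory factors that stimulate the helicase, Eif4h gave 0.14 ± 0.041 (SE), adjusted p = 0.00470 by edgeR in young cells and was called in aged cells with the replicate block (adjusted p = 0.0335) or without aged untreated 1 (adjusted p = 0.0332). Eif4b was not called (-0.11, adjusted p = 0.0561 by edgeR in young, and -0.098, adjusted p = 0.0964 in aged cells), and with the block it was lower in young cells (adjusted p = 0.0327). With library sizes alone Eif4a3 (-0.29 and -0.22) and Eif4b (-0.33 and -0.26) were called lower at both ages, and Eif4a2 and Eif4h were not called in young cells.

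The mRNA of the cap-binding protein rose, while 2 of the 4 4E-binding proteins fell and the other two were not called at either age in the fit without a block. Eif4e rose by 44.0% in young and 26.8% in aged cells. Its levels were 177, 175, 166, 156 and 174 CPM in young untreated, 256, 248.9, 235, 229 and 254 in young LPS, 163, 182, 192, 177 and 181 in aged untreated and 221, 223, 237, 224 and 229.5 in aged LPS cultures, without overlap at either age (0.53 ± 0.048 (SE), adjusted p = 1.76e-09 and 0.34 ± 0.048 (SE), adjusted p = 2.27e-06, edgeR). Eif4ebp2 encodes 4E-BP2, a protein that sequesters eIF4E when hypophosphorylated. Its levels were 303, 286, 292, 318 and 308 CPM in young untreated and 145, 143, 150.4, 171 and 156 CPM in young LPS cultures. They were 308, 270.5, 273, 282 and 278 CPM in aged untreated and 186, 176, 173, 191 and 178 CPM in aged LPS cultures. The LPS cultures lay below all untreated ones at both ages, and the mRNA fell by 49.1% in young (-0.98 ± 0.051 (SE), adjusted p = 1.32e-13, edgeR) and fell by 35.9% in aged cells (-0.64 ± 0.051 (SE), adjusted p = 3.11e-10). The LPS culture was lower in 5 of 5 batches at each age, and with library sizes alone the log2 fold changes were -1.19 in young and -0.80 in aged cells.

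The other 4E-BP genes were not called. Eif4ebp1, encoding the better-known 4E-BP1, had levels of 42.6, 51.5, 54.5, 66.2 and 61.2 CPM in young LPS and 88.8, 64.2, 40.3, 62.6 and 67.3 CPM in aged LPS cultures, beside 48.2, 47.7, 47.6, 54.4 and 53.7 CPM in young and 60.4, 51.7, 42.4, 45.0 and 57.3 CPM in aged untreated cultures. The groups overlapped at both ages, and aged LPS 3 lay below all aged untreated cultures. It gave 0.14 ± 0.15 (SE), adjusted p = 0.431 by edgeR in young and 0.33 ± 0.15 (SE), adjusted p = 0.0570 in aged cells, the latter called with the replicate block (adjusted p = 0.0466). It was also called in aged cells without aged LPS 3 (adjusted p = 0.00230, edgeR), aged untreated 1 (0.0344), aged untreated 5 (0.0491) or young LPS 1 (0.0459), and with no filter on low counts. With library sizes alone its adjusted p was 0.332 (edgeR). Eif4ebp3, at 5.11 to 8.93 CPM, gave -0.052 (adjusted p = 0.755, edgeR) and -0.14 (adjusted p = 0.399), and 67.3% of its exon bases are shared with a same-strand gene that has 524% of its counts, so its level is uncertain. Eif4enif1 fell by 20.7% in young (-0.33 ± 0.047 (SE), adjusted p = 1.61e-06, edgeR) and fell by 14.4% in aged cells (-0.23 ± 0.047 (SE), adjusted p = 0.000296), without overlap at either age. Of the cap-binding paralogs, Eif4e2, which represses translation with GIGYF2, rose by 32.1% (0.40 ± 0.043 (SE), adjusted p = 2.77e-08, edgeR) and 24.8% (0.32 ± 0.043 (SE), adjusted p = 1.45e-06). Eif4e3 fell from 5.45, 4.28, 4.53, 5.01 and 4.33 CPM in young untreated to 3.36, 1.82, 2.07, 1.72 and 3.10 CPM in young LPS cultures (-0.98 ± 0.21 (SE), adjusted p = 0.000339, edgeR), without overlap. In aged cells it went from 2.52, 4.31, 2.97, 3.19 and 2.40 to 1.69, 0.907, 2.21, 1.86 and 2.6 CPM, where the ranges overlapped in a transcript near the low end of detection (-0.72 ± 0.23 (SE), adjusted p = 0.0104, edgeR). Of its exon bases 14.8% are shared with a same-strand gene, Gm20696, that has 19.2% of its counts, so the Eif4e3 level is uncertain.

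**Figure D3:**
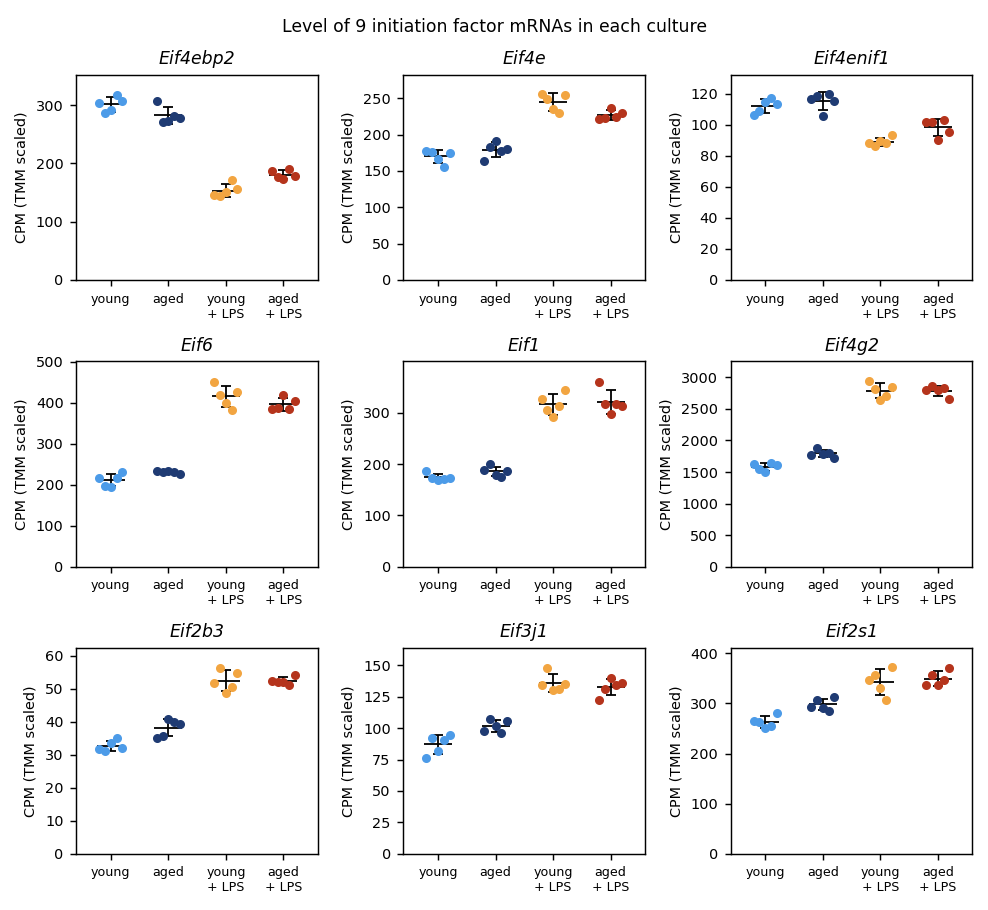
Level in CPM (TMM scaled, y axis from 0) of 9 initiation factor mRNAs in each of the 20 cultures; points are cultures in batch order, bars are the mean and SD of 5. Eif4ebp2 lies between 270.5 and 318 CPM in all untreated cultures, between 143 and 171 in young LPS and between 173 and 191 in aged LPS cultures, while Eif6, Eif1 and Eif4g2 lie higher in every LPS culture.

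The per-length ratio of Eif4e to Eif4ebp2 was 0.563, 0.590, 0.549, 0.473 and 0.545 in young untreated and 1.70, 1.67, 1.5, 1.29 and 1.57 in young LPS cultures. In aged cells it was 0.511, 0.649, 0.676, 0.603 and 0.625 in untreated and 1.14, 1.22, 1.31, 1.13 and 1.24 in LPS cultures. The means were 0.544 ± 0.0435 (SD, n = 5), 0.613 ± 0.0631, 1.55 ± 0.164 and 1.21 ± 0.0766 in young, aged, young LPS and aged LPS cultures. Untreated cultures held less Eif4e than Eif4ebp2 mRNA per length and LPS cultures more, and the young LPS and aged LPS ranges overlapped only through young LPS 4 at 1.29. Being a ratio within a library, it does not depend on the scaling, but which mRNA of the pair is higher depends on the exon lengths used. The ratio of Eif4e to Eif4ebp1 overlapped among all groups, with means of 1.24 ± 0.125, 1.30 ± 0.256, 1.67 ± 0.347 and 1.38 ± 0.460 (SD, n = 5) in the same order.

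**Figure D4:**
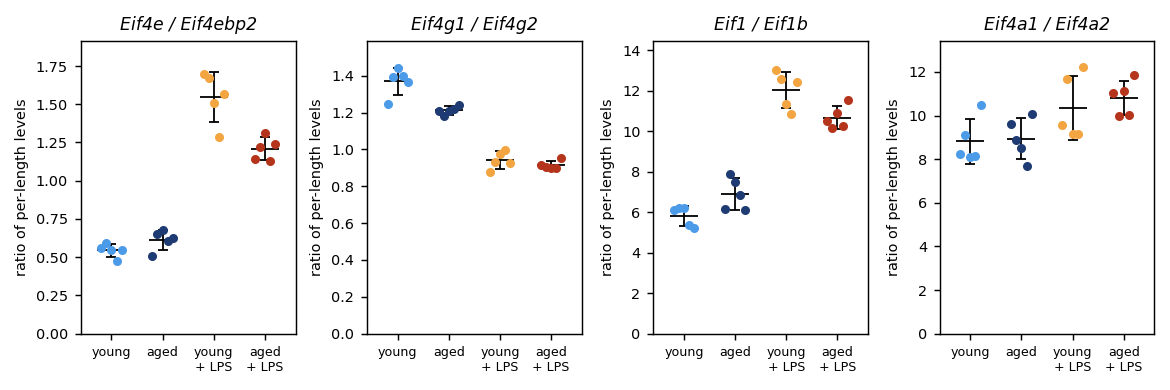
Ratio of the per-length levels of 4 pairs of initiation factor mRNAs (y axes from 0) in each culture; points are cultures in batch order, bars are the mean and SD of 5. Eif4e to Eif4ebp2 stands at 0.473 to 0.676 in untreated and 1.13 to 1.70 in LPS cultures, Eif4g1 to Eif4g2 is lower and Eif1 to Eif1b higher in every LPS culture, and Eif4a1 to Eif4a2 overlaps.

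Among the other factors Eif6 and Eif1 had the largest rises. Eif6 keeps the large ribosomal subunit from joining the small one too early and takes part in its maturation. Its levels were 217, 197, 195, 216 and 232 CPM in young untreated and 451, 419.6, 399, 382 and 425 CPM in young LPS cultures. They were 233, 230.3, 233, 231 and 227 CPM in aged untreated and 384, 387, 419, 385 and 404 CPM in aged LPS cultures. No groups overlapped between LPS and untreated, with a rise by 96.5% in young (0.97 ± 0.050 (SE), adjusted p = 1.08e-13, edgeR) and 71.6% in aged cells (0.78 ± 0.050 (SE), adjusted p = 9.25e-12). Eif1, which enforces the choice of a proper start codon, stood at 186, 173, 169, 172 and 174 CPM in young untreated, 326, 305, 292, 313 and 345 in young LPS, 188, 199.9, 179, 175 and 186 in aged untreated and 361, 318, 298, 317 and 313 in aged LPS cultures. It rose without overlap by 81.0% (0.86 ± 0.054 (SE), adjusted p = 3.36e-12, edgeR) and 73.1% (0.79 ± 0.054 (SE), adjusted p = 2.45e-11). Its paralog Eif1b stood on the TMM scale at a log2 fold change of -0.19 (adjusted p = 0.0660, edgeR) in young and 0.15 (adjusted p = 0.154) in aged cells, and was called lower in young cells with the replicate block (adjusted p = 0.0433) and with library sizes alone (0.000479). The per-length ratio of Eif1 to Eif1b was 5.83 ± 0.495 (SD, n = 5) in young untreated, 6.90 ± 0.794 in aged untreated, 12.0 ± 0.899 in young LPS and 10.7 ± 0.550 in aged LPS cultures.

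Smaller rises were shared by Eif5, the activator of GTP hydrolysis on eIF2 (0.35 in young and 0.24 in aged cells), Eif5a (0.25 and 0.21) and Eif1a (0.25 and 0.17), all called at both ages on the TMM scale. None of the 3 was called at either age with library sizes alone, where Eif5 gave 0.13 and 0.076, Eif5a 0.033 and 0.052 and Eif1a 0.028 and 0.013. The aged Eif1a call was lost without aged LPS 1 (adjusted p = 0.0612, edgeR), and Eif1a has a near-identical X-linked copy, Eif1ax, which was not called on the TMM scale (0.083 and 0.069). Eif5b, the GTPase that joins the ribosomal subunits, and Eif2a, an alternative carrier of initiator transfer RNA, were called in young cells (0.20 and 0.19). In aged cells they stood at a log2 fold change of 0.048 (adjusted p = 0.471, edgeR) and 0.093 (adjusted p = 0.0612), and Eif2a was called there with the replicate block (adjusted p = 0.0324). Serp1, which overlaps Eif2a on the opposite strand, had 243% of its counts and rose by 0.65 in young and 0.38 in aged cells, so that the Eif2a values are uncertain. Rev1, with 19.1% of the counts of Eif5b, gave -0.17 and -0.094. Eif2d, a factor of reinitiation, stood at a log2 fold change of -0.13 and 0.048 and was not called on the TMM scale, while its opposite-strand neighbour Rassf5 (94.0% of its counts) fell by 0.85 and 0.62. Eif1ad fell by 0.30 (9.31e-05, edgeR adjusted p) in young and 0.17 (0.0138) in aged cells on the log2 scale, the latter lost without aged untreated 3 (adjusted p = 0.0559). Its opposite-strand neighbour Banf1, with 94.9% of its counts, stood at a log2 fold change of 0.046 and 0.093 and was not called, and the Eif1ad values are uncertain because the reads of the pair may not be told apart. Of the 8 tested genes with an E-box, 6 were called higher in young and 4 in aged cells on the TMM scale. This stands beside 34 and 28 of all 48, and 31.2% and 27.5% of all genes. With library sizes alone Eif4a1 and Eif4e were called higher at both ages. The calls of Eif3k, Eif4g1, Eif4h and Eif5a in young cells and of Eif4g1 and Eif5a in aged cells were then lost. Eif1b and Eif3f were called lower in young cells on that scale.

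The next question was whether aged cells differed before any stimulus. Most fitted values lay above 0 in aged cells, and few passed the test. Of the 48 mRNAs 6 were higher in aged untreated cultures and 1 lower, against 3.71% and 7.81% of all genes tested. Those higher were Eif2s1 and Eif2s3x of eIF2, Eif2b3, Eif3j1, Eif4g2 and Eif5, all with rises between 13.2% and 19.8%, and the lower one was Eif4e3. The fitted value was above 0 for 40 of the 48, beside 46.4% of all genes, with a median of 0.0895 on the log2 scale beside -0.0136 over all genes. The edgeR p before adjustment was below 0.05 for 20 of the 48, beside 25.8% of all genes. In 11 of the 48 the aged and young cultures did not overlap, against 10.4% of all genes, and in 21 the aged culture was higher in 5 of 5 batches, against 11.3% of all genes.

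With the batch number as a block, 17 were called higher and 0 lower, against 6.00% of all genes higher. With library sizes alone 12 were called higher, against 4.94% of all genes, and with DESeq2 size factors 8, against 3.99%. The DESeq2 test called 14 in either direction, against 12.1% of all genes, and with the block 18, against 17.5%. All 5 family medians were above 0 with TMM and with library sizes alone. The block added Eif2s2, Eif2b1, Eif2b2, Eif3b, Eif3d, Eif3e, Eif3g, Eif3l, Eif3m, Eif4a1 and Eif5a and removed Eif4e3 (adjusted p = 0.0511, edgeR). By family, 3 of 3 eIF2, 3 of 5 eIF2B, 7 of 14 eIF3, 2 of 15 eIF4 and 2 of 11 other mRNAs were then higher.

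**Figure D5:**
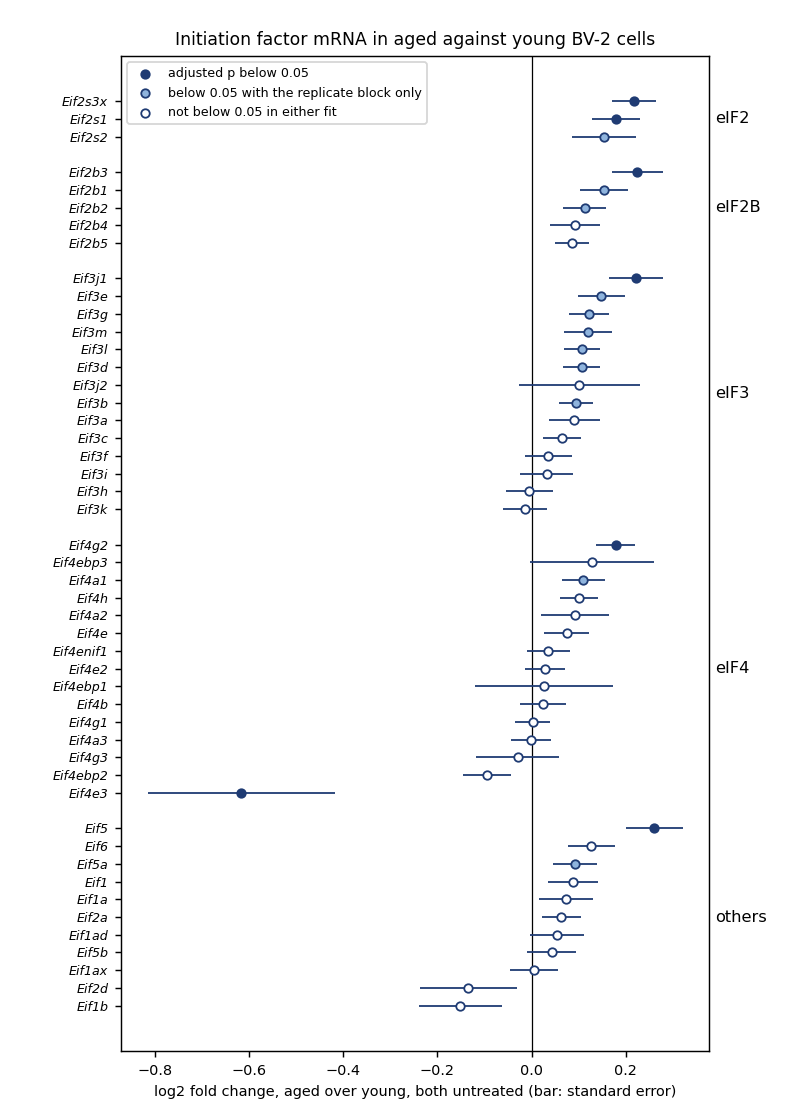
Log2 fold change of aged over young untreated cultures (x axis) for each tested initiation factor mRNA, grouped by family; bars are standard errors, dark points have an edgeR adjusted p below 0.05, pale points only with the replicate block. Eif5 has the largest increase at 0.26 and Eif4e3 the lowest value at -0.62, and 40 of the 48 points lie right of 0.

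Eif5 had the largest increase. Its levels were 440.5, 493, 474, 489 and 499 CPM in young and 578, 629, 504, 593 and 566 CPM in aged untreated cultures, which did not overlap (0.26 ± 0.060 (SE), adjusted p = 0.00624, edgeR). Eif2s3x stood at 145, 151, 137, 151 and 157 CPM in young and 171, 178, 164, 167 and 180.3 in aged cultures, again without overlap (0.22 ± 0.047 (SE), adjusted p = 0.00453, edgeR). From the levels given above, Eif2b3 (0.22 ± 0.055 (SE), adjusted p = 0.00966, edgeR), Eif4g2 (0.18 ± 0.041 (SE), adjusted p = 0.00692) and Eif3j1 (0.22 ± 0.058 (SE), adjusted p = 0.0144) also separated the groups. Calls of Eif5, Eif2s3x, Eif2b3 and Eif4g2 held in each of 20 fits with a library left out. That of Eif3j1 was lost without young untreated 3 (adjusted p = 0.0504), and that of Eif2s1 (0.18 ± 0.050 (SE), adjusted p = 0.0228, edgeR) without young untreated 2 (adjusted p = 0.0522), young untreated 3 (0.0708), aged untreated 2 (0.0601) or aged untreated 5 (0.0658). Eif4e3 (-0.62 ± 0.20 (SE), adjusted p = 0.0471, edgeR) was called in 8 of 20 such fits. It was lost without any 1 young untreated library, without aged untreated 1, 3, 4 or 5, and without young LPS 3 or aged LPS 1 or 4, which enter the shared spread (adjusted p up to 0.114). It was also lost with library sizes alone, with DESeq2 size factors and with no filter on low counts. Aged untreated 2 at 4.31 CPM lay inside the young range.

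The other factors described above differed less. Eif2s2 gave 0.15 ± 0.068 (SE), adjusted p = 0.154 by edgeR, with a call under the replicate block (adjusted p = 0.0203). The 4E-binding proteins stood at a log2 fold change of 0.027 for Eif4ebp1, -0.094 for Eif4ebp2, 0.13 for Eif4ebp3 and 0.036 for Eif4enif1, with edgeR adjusted p of 0.941, 0.245, 0.602 and 0.693. Of the paralogs, Eif4e gave 0.075 and Eif4e2 0.029, Eif4g1 0.0022 and Eif4g3 -0.029, Eif4a1 0.11 and Eif4a2 0.092, Eif1 0.088 and Eif1b -0.15, and none of these was called, apart from Eif4a1 with the block (adjusted p = 0.0230). Eif5a gave 0.092 and was called with the block (adjusted p = 0.0355), and Eif3j2 gave 0.10 (adjusted p = 0.686). The per-length ratio of Eif4g1 to Eif4g2 was lower in every aged than in every young untreated culture, at 1.18 to 1.24 against 1.25 to 1.44.

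Between the ages under LPS, few initiation factors were called on the TMM scale. Of the 48 mRNAs 3 were higher in aged LPS than in young LPS cultures and 0 lower, against 14.0% and 15.0% of all genes. The count depended on the scaling: with library sizes alone 14 were higher and 0 lower, against 24.7% of all genes higher, and the added mRNAs were Eif1b, Eif2b2, Eif2b5, Eif2s3x, Eif3b, Eif3f, Eif3g, Eif3l, Eif4h, Eif5 and Eif5a. The 3 were Eif4ebp2, Eif4enif1 and Eif1ad, all of which LPS had lowered at both ages. The median over the 48 was 0.017 beside 0.0085 over all genes, 30 of the 48 were fitted higher, beside 51.5% of all genes, and the edgeR p before adjustment was below 0.05 for 7, beside 38.6% of all genes. In 2 of the 48, Eif4ebp2 and Eif2b5, the groups did not overlap, against 14.8% of all genes. With the replicate block 6 were higher, against 16.3% of all genes, with the addition of Eif2b5 (adjusted p = 0.0456, edgeR), Eif2s3x (0.0469) and Eif5 (0.0125). DESeq2 with the block called 7, against 28.5% of all genes in either direction, adding Eif5 and, lower in aged cells, Eif4a2, Eif4e and Eif5b.

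Eif4ebp2 was 18.1% higher in aged LPS cultures (0.24 ± 0.051 (SE), adjusted p = 0.00104, edgeR), in 5 of 5 batches and in each fit with a library left out. Eif4enif1 stood at 88.2, 86.3, 89.4, 88.3 and 93.3 CPM in young LPS and 102, 102, 90.4, 103 and 95.7 CPM in aged LPS cultures (0.15 ± 0.047 (SE), adjusted p = 0.0236, edgeR), where aged LPS 3 lay inside the young range. Its call was lost without young LPS 2 (adjusted p = 0.0617), aged LPS 1 (0.0535), aged LPS 2 (0.0593) or aged LPS 4 (0.0676), and also with no filter on low counts. Eif1ad stood at 164, 145, 149, 142 and 148 CPM in young LPS and 153, 178, 184, 170.3 and 163 CPM in aged LPS cultures (0.18 ± 0.058 (SE), adjusted p = 0.0219, edgeR), where the ranges overlapped. Banf1, on its opposite strand, stood at 0.15 (adjusted p = 0.101, edgeR), so that the Eif1ad values are uncertain. Its call was lost without young LPS 2 (adjusted p = 0.0554), young LPS 4 (0.0520), aged LPS 2 (0.0593) or aged LPS 3 (0.0617).

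The eIF2 subunits stood at a log2 fold change of 0.027 for Eif2s1, -0.013 for Eif2s2 and 0.093 for Eif2s3x, and were not called on the TMM scale without the block (edgeR adjusted p = 0.738, 0.912 and 0.154). With library sizes alone Eif2s3x was called (adjusted p = 0.00796, edgeR). Eif4ebp1 gave 0.22 (adjusted p = 0.277, edgeR, and 0.0283 without aged LPS 3) and Eif4ebp3 0.042 (adjusted p = 0.855). Of the paralogs, Eif4e gave -0.11, Eif4e2 -0.054 and Eif4e3 -0.35, Eif4g1 -0.043, Eif4g2 0.0006 and Eif4g3 0.036, Eif4a1 -0.051 and Eif4a2 -0.12, Eif1 0.024 and Eif1b 0.20, Eif3j1 -0.032 and Eif3j2 0.061, and Eif5a 0.050 on the log2 scale, none of them called in the TMM fit. Eif1b and Eif5a were called with library sizes alone (adjusted p = 0.0273 and 0.0353, edgeR), and Eif4e without young LPS 4 (adjusted p = 0.0480).

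The interaction asks whether the LPS response itself differed between the ages. It was called for 1 of the 48 mRNAs, Eif4ebp2, against 6.39% of all genes in either direction. Its fall was smaller in aged cells by 0.33 ± 0.071 (SE), adjusted p = 0.00615 (edgeR), positive in 5 of 5 batches and called in every fit with a library left out. On the TMM scale the response was fitted lower in aged cells for 36 of the 48, while 53.9% of all genes were fitted higher. The median there was -0.069 beside 0.019 over all genes. With library sizes alone the median of the 48 was -0.0090 and that of all genes 0.079, so the tally and median themselves depend on the scaling. Relative to the median of all genes on that scale the 48 stood at -0.0875, and 9 of them lay above it. The edgeR p before adjustment was below 0.05 for 11 of the 48, beside 19.4% of all genes. With the replicate block 4 were called, against 9.03% of all genes: Eif4ebp2 again, and Eif3j1 (-0.25, adjusted p = 0.0226, edgeR), Eif4a1 (-0.16, adjusted p = 0.0320) and Eif4g2 (-0.18, adjusted p = 0.0384), whose rise was smaller in aged cells. In each of these 3 the response was smaller in aged cells in 5 of 5 batches. The interaction was negative in all 5 batches for 18 of the 48 mRNAs and positive in all 5 for 4. The share over all genes is not given here. With library sizes alone and no block none of the 3 was called. Eif3j1 then gave -0.19 (adjusted p = 0.162, edgeR), Eif4a1 -0.10 (0.416) and Eif4g2 -0.12 (0.231).

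DESeq2 called 7 of the 48, against 9.26% of all genes, and with the block 11, against 12.0%. No other difference between the responses was called by edgeR on the TMM scale with all libraries. The eIF2 subunits gave -0.15, -0.17 and -0.12 for Eif2s1, Eif2s2 and Eif2s3x (edgeR adjusted p = 0.236, 0.369 and 0.323). The other 4E-binding proteins gave 0.20 ± 0.21, -0.087 ± 0.19 and 0.11 ± 0.066 (SE) for Eif4ebp1, Eif4ebp3 and Eif4enif1. Eif1b gave 0.35 ± 0.13 (SE), positive in 5 of 5 batches but not called (adjusted p = 0.115, edgeR), beside -0.064 for Eif1. Eif4e gave -0.18 (adjusted p = 0.114, edgeR), Eif4e2 -0.083, Eif4e3 0.26, Eif4a2 -0.21, Eif4g1 -0.045, Eif4g3 0.066, Eif3j2 -0.040 and Eif5a -0.042 on the log2 scale. The smaller rise of Eif6 in aged cells, -0.20, did not pass the test (adjusted p = 0.111, edgeR).

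Other genes of the pathway are read against the shares of all genes, of which 31.2% rose and 33.5% fell with LPS in young cells and 27.5% and 26.9% in aged cells. Of 11 tested genes for eIF2 kinases, the eIF2 alpha phosphatase and their partners, 7 rose and 3 fell at each age. Eif2ak2, the kinase PKR that senses double-stranded RNA, gave 2.29 ± 0.10 (SE), adjusted p = 9.40e-15 by edgeR in young and 1.84 ± 0.10 (SE), adjusted p = 7.37e-13 in aged cells, and Ppp1r15a, the inducible phosphatase subunit GADD34, 2.23 and 1.78. Atf4, the transcription factor translated when eIF2 alpha is phosphorylated, rose by 0.77 and 0.74, and its targets Ddit3 and Trib3 rose by 1.81 and 1.84 and by 1.43 and 2.15. Eif2ak3, the kinase PERK of the endoplasmic reticulum, fell by 1.00 in young and 0.38 in aged cells, a difference that was called (0.62 ± 0.11 (SE), adjusted p = 0.00103, edgeR). Eif2ak4 and Eif2ak1 fell by 0.44 and 0.25 in young and 0.40 and 0.16 in aged cells.

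Of 15 tested genes of mTORC1 and MNK signalling and its targets, 3 rose and 4 fell at each age, no larger a share than among all genes. Mknk2, a kinase of eIF4E, fell by 1.21 in young and 0.68 in aged cells, and this difference was called (0.54 ± 0.13 (SE), adjusted p = 0.0130, edgeR). Deptor, an inhibitor of mTOR, fell by 2.50 and 1.98, and Pdcd4, an inhibitor of the eIF4A helicase, by 2.51 and 1.86. Larp1, which binds pyrimidine-start mRNAs, rose by 0.53 and 0.33. Mtor itself was not called in either response (adjusted p = 0.0873 and 0.265, edgeR). In aged untreated cultures 0 genes of this list were higher and 1, Pdcd4, lower (-0.45 ± 0.13 (SE), adjusted p = 0.0246, edgeR).

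Of 20 tested initiation helpers without an Eif symbol, 12 rose and 4 fell at each age. Denr, a factor of reinitiation, rose by 1.26 in young and 1.00 in aged cells, with a called difference (-0.26 ± 0.079 (SE), adjusted p = 0.0481, edgeR). Pabpc1, the poly(A)-binding protein that joins mRNA ends through eIF4G, rose by 0.42 and 0.38, and its inhibitor Paip2 fell by 0.49 and 0.38 while the paralog Paip2b rose by 1.29 and 1.05. Of 10 tested elongation and termination factors, 8 rose and 1 fell at each age, the latter being Eef2k, the kinase that inhibits elongation factor 2 (-1.56 ± 0.13 (SE), adjusted p = 4.27e-10 by edgeR in young and -0.96 ± 0.13 (SE), adjusted p = 8.45e-07 in aged cells). Of 9 mitochondrial initiation and elongation factors, 1 rose and 1 fell in young cells and 0 rose and 1 fell in aged cells. All 10 tested LPS response controls, Tnf, Nfkbia and Ptgs2 among them, rose at both ages.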

How the data were processed

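RNA-seq of 20 BV-2 cultures in 4 groups of 5 was analysed from a table of whole-number read counts per gene that the authors deposited. The submitters' processing notes name FastQC 0.11.8, STAR 2.6.1d, featureCounts 1.5.1, DESeq2 and the mouse build GRCm38. Whether reads of overlapping genes, of either strand or of several positions were counted is not given in the sources used here. Gene types and exon lengths came from GENCODE, which matched 55227 of 55487 genes by identifier, and promoter windows from RefSeq (GRCm38.p6). The initiation factor genes and all gene lists were chosen with earlier results of these data known.

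Genes were kept by filterByExpr, libraries scaled by TMM, and a quasi-likelihood model of the 4 groups was fitted to all 20 libraries and 12799 genes with edgeR 4.0.16 (limma 3.58.1, R 4.3.3). Adjusted p-values are Benjamini-Hochberg over all 12799 genes, and calls use 0.05. Levels are counts per 1000000 (CPM) on TMM-scaled library sizes, with a prior count of 2 for log2 values, and comparisons between genes divide by exon length. The number of separate cultivations is unknown, so p-values measure the spread among these libraries, which may be technical. Genes are named where called (at most 12 per direction, or the 8 largest per direction for LPS), together with all eIF2 subunits, 4E-binding proteins and paralog pairs. eIF2B, eIF3 and other members outside that rule that are named singly were chosen after their values were seen.

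The shared number 1 to 5 was read as a batch. The mean correlation of deviations between same-numbered libraries was 0.111 for young and aged untreated, 0.276 for young untreated and young LPS, 0.26 for aged untreated and aged LPS and 0.0425 for young LPS and aged LPS. Single pairs ran from -0.0845 to 0.253, from 0.122 to 0.369, from 0.182 to 0.394 and from -0.214 to 0.275 in the same order. The batch number was therefore tried as a block, beside DESeq2 1.42.0, other size factors, library sizes alone, other filters and thresholds, the compared groups alone and each library left out. Replicate pairs differed by more than sampling noise (chi-square per degree of freedom 2.42 to 26.8). On simulated counts for aged against young untreated, edgeR recovered 192 of 200 genes changed 2-fold with 5 false calls among 12496 genes, and DESeq2 190 with 11 among 12799. The simulation gave every gene the same spread and no batch effect, unlike these libraries. It did not examine changes smaller than 2-fold, so it does not show how the tests perform on the smaller changes called here. Tables and plots used Python 3.11.15, pandas 2.3.3, numpy 2.4.6 and matplotlib 3.10.9.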

Additional observations from a re-analysis of the deposited data

Results flagged for a closer look

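Of 192 sets of 5 cultures examined (48 mRNAs in 4 groups), 10 had 1 culture that stood apart from the other 4 by Dixon's criterion, and chance alone flags about 1 in 20 such sets. Higher than the rest of their group were Eif2b2 in aged untreated 1 (67.3 CPM, next 62.0), Eif3j1 in young LPS 2 (148 CPM, next 135), Eif3m in young LPS 5 (187.5 CPM, next 168), Eif4b in young LPS 1 (820.5 CPM, next 747), Eif1 in young untreated 1 (185.9 CPM, next 174) and Eif2d in aged LPS 3 (48.2 CPM, next 35.8). Lower than the rest were Eif2b1 in aged LPS 1 (72.6 CPM, next 84.3), Eif2b4 in young LPS 4 (58.1 CPM, next 67.5), Eif3c in aged untreated 3 (562.9 CPM, next 579.7) and Eif4ebp3 in aged untreated 2 (5.92 CPM, next 8.08). The LPS response of Eif4ebp2 differed between aged and young cells by 0.33 on the log2 scale, the only such difference called among the 48 mRNAs in the edgeR fit without a block.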

How the results depend on the processing

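Across 28 alternatives, the stricter thresholds not included, for 110 pairs of a named mRNA and a comparison, 2963 of 3060 values kept their side of the threshold. Of the rest 41 lost a call and 56 gained one, and 0 reversed a called direction. Among uncalled values 48 changed sign, 12 of them with library sizes alone. The number of initiation factor mRNAs called in aged against young untreated cultures was 7. It became 14 with DESeq2 (12.1% of all genes) and 12, all higher, with library sizes alone (4.94% of all genes higher). It was 4 at an adjusted p below 0.01 (4.86% of all genes) and 1 with a log2 fold change of at least 0.5 (3.71%). For LPS in young cells the 38 became 25 with library sizes alone (8808 of all 12799 genes), with 18 kept and 7 newly called lower. They became 12 where a log2 change of 0.5 or more was required (35.1% of all genes). For LPS in aged cells the 32 became 19 with library sizes alone (7648 of all 12799 genes), with 16 kept and 3 newly called lower. With a log2 change of 0.5 or more they became 5 (25.3%). Under LPS the 3 age differences became 14, all higher, with library sizes alone (24.7% of all genes higher). They became 1 at an adjusted p below 0.01 (18.2% of all genes) and 0 with a log2 fold change of at least 0.5 (10.1%). For the interaction the 1 became 7 with DESeq2 (9.26% of all genes) and 0 with a log2 fold change of at least 0.5 (3.01%). Leaving out each library gave 4 to 9, 38 to 40, 30 to 33, 1 to 4 and 1 to 2 calls in the same order of comparisons. Over all genes, 12885 to 12911 of them tested, the same fits gave 954 to 1646, 7950 to 8353, 6546 to 7092, 2952 to 3937 and 554 to 1069 calls.

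With the replicate block, edgeR called 17 higher (6.00% of all genes higher) in aged against young untreated cultures, and DESeq2 18 in either direction (17.5%). Under LPS edgeR called 6 higher (16.3%) and DESeq2 7 in either direction (28.5%). For the interaction they called 4 (9.03% of all genes) and 11 (12.0%). The calls that the edgeR block changed are given with the results, and it changed no other call of a named mRNA. The DESeq2 block further called Eif4h in aged against young untreated cultures and Eif1ax for LPS in young cells, lost Eif2b1 for LPS in aged cells, and for the interaction called Eif2s1, Eif2s2, Eif3d, Eif3e, Eif3j1, Eif4a1, Eif4a2, Eif4e, Eif4g2 and Eif6, all with a smaller response in aged cells. Several calls gained with the edgeR block were not made by the DESeq2 block. These were Eif2a, Eif2b2, Eif3k and Eif4ebp1 for LPS in aged cells, Eif1b and Eif4b for LPS in young cells, and Eif2b5 and Eif2s3x under LPS. DESeq2 without a block lost Eif2b1 and Eif3i for LPS in aged cells and for the interaction called Eif2b3, Eif3j1, Eif4a1, Eif4e, Eif4g2 and Eif6. The part of scaling in these counts was not tested beyond the values given. At a median of 14257954 to 14458210 counts per library, Eif4e3, Eif3j2 and Eif4ebp3 lie below 10 CPM, where counting error limits what can be seen. Leaving out a single library also gained calls in some fits, of Eif2b1, Eif3e, Eif3g, Eif3l and Eif6 in aged against young untreated cultures, Eif1b, Eif4b and Eif4g3 for LPS in young, Eif2b2, Eif4a2, Eif4ebp1 and Eif4h for LPS in aged cells, Eif2b5, Eif4e, Eif4ebp1 and Eif5 under LPS, and Eif3j1 and Eif6 for the interaction.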

Other observations

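Beside the counts here, 3.71% of all genes were higher and 7.81% lower in aged untreated cultures, and 14.0% and 15.0% in aged LPS cultures. Between untreated cultures, 5 of 20 initiation helpers were higher in aged cells and 0 lower (Abce1 0.16, Dhx29 0.21, Pabpc4 0.19, Bzw1 0.17 and Ncbp1 0.14 on the log2 scale, edgeR), as were 3 of 10 elongation and termination factors and 2 of 9 mitochondrial factors (Tsfm and Gfm2). Of the eIF2 kinases, phosphatase and partners, 0 of 11 were higher and 1, Eif2ak3, lower (-0.25). Under LPS, 4 of 20 helpers were higher and 4 lower in aged cells, near those shares, 1 gene of the elongation and termination list, the kinase Eef2k (0.56), was higher, and of the kinase list 1 was higher and 2 lower. In the mTORC1 and MNK list 2 were higher and 1 lower, and 1 mitochondrial factor, Tsfm, was higher.

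Of the 10 tested LPS response controls, which are inflammatory genes, 5 were lower in aged than in young untreated cultures and 9 were lower in aged LPS than in young LPS cultures, with 0 higher in either. The interaction was called for 1 of them, Acod1, whose rise was larger in aged cells. The median LPS response of the 10 controls was 7.01 in young and 8.08 in aged cells on the log2 scale, and the median interaction 0.051. The response of Eef2k to LPS also differed between the ages, by 0.60 ± 0.18 (SE), adjusted p = 0.0486 (edgeR), as did that of Gspt1, a termination factor counted here among the initiation helpers, by -0.23 ± 0.065 (SE), adjusted p = 0.0404.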
